A study of Mus musculus with 9 samples.

Results

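Fgf7, Fgf10, Fgf13 and Fgf1 are mouse genes of the fibroblast growth factor (FGF) family, chosen by symbol as candidate signals of the dermal papilla, a small cluster of mesenchymal cells beneath each hair follicle. They are 4 of the 12393 genes named on the array, and each was represented by its brightest probe set. Gene expression was measured on 9 oligonucleotide microarrays, with 1 array for each of 3 sorted back skin populations on postnatal days 43, 56 and 69, which the labels call early, middle and late telogen (the resting phase of the hair cycle). The dermal papilla arrays held red, green-negative cells depleted of CD45, CD117 and Itgα7 and, in the sample titles, also of CD34. The hair germ arrays held green, red-negative, CD34-negative cells with high P-cadherin, and the bulge arrays held green, red-negative, CD34-positive cells with low P-cadherin. All came from virgin CD1 females of the genotype Lef1RFP/K14H2BGFP, so every population carried both reporters: red fluorescence tied to Lef1, and a green histone driven by the keratin 14 promoter of basal epithelial cells. Enzymes released the dermal papilla cells (collagenase) and the epithelial cells (trypsin) in separate steps. The labels do not say how many mice made up a sample. The 3 days of a population served as its replicates, so a spread (SD, n = 3) includes any change with age.

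Secreted FGFs bind receptor tyrosine kinases together with heparan sulfate and signal mainly through the MAP kinase cascade. FGF7 (keratinocyte growth factor) and FGF10 are made by mesenchyme and act on the epithelial splice form of FGFR2. FGF1 has no classical signal peptide and can bind all the FGF receptors. FGF13 is a homologous factor: it stays inside the cell, binds voltage-gated sodium channels and microtubules, and is not regarded as a ligand of the FGF receptors, so the name "ligand" fits it only by family. In skin, papilla FGFs are known as cues that act on the neighbouring hair germ as the follicle leaves telogen.

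Fgf7, Fgf10 and Fgf13, the last on 1 of its 2 probe sets, were higher in dermal papilla than in either epithelial population. Fgf1 was lower there and highest in bulge, against its label as a dermal papilla gene. The genes were chosen with earlier results of these data known, and other dermal mesenchyme was not sampled, so this is no test of the label. The 5′ flanks of Fgf7 and Fgf10 are shown because both encode mesenchymal ligands of the same receptor form and both had their highest mean in dermal papilla, although Fgf10 was dim there. Each is the 250 bases before the RefSeq start site on the plus strand of GRCm38.p6, with capitals marking matches, on either strand, to the motifs searched.
Fgf7, chr2:126034408-126034657: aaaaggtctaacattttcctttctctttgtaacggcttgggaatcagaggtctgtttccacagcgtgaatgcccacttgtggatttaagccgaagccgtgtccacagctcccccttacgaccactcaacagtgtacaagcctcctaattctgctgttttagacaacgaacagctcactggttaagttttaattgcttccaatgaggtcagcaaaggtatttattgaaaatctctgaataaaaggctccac
Fgf10, chr13:118714449-118714698: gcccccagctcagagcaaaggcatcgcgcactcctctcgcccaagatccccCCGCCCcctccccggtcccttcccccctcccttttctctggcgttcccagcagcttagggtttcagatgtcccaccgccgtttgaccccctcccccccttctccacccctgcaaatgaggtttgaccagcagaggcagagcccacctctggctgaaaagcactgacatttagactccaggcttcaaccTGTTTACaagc
The TATA box was searched for as TATAAA, which 12.4% of 32851 promoter windows of this length held. The core of TCF/LEF sites was searched for as CTTTGA, held by 13.8% of windows. The forkhead core TGTTTAC was held by 3.17% and the GC box, as GGGCGG, by 32.7%. The Fgf10 window held a forkhead core beginning 11 bases before the start and a GC box on the minus strand beginning 199 bases before it, and the motifs do not overlap. No match fell in the Fgf7 window, which says only that these letters are not in these 250 bases. The windows differed in composition, with 61.2% G and C and 8 CpG sites for Fgf10 and 43.6% and 6 CpG sites for Fgf7, against medians of 52.4% and 6 over all windows. Fgf13, on chromosome X, had 4 start sites in the table, and the array does not tell which was used. Of its 4 windows, 2 held GC boxes, with 33 and 31 CpG sites, and 2 held no motif, with 2 and 6 CpG sites.

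The arrays followed their sort labels for the genes that could be checked. Krt14 lay above the array median on the 6 epithelial arrays and on 0 of the 3 dermal papilla arrays, Cd34 on the 3 bulge arrays alone, and Lef1 on the 3 dermal papilla arrays alone. Cdh3 (P-cadherin) lay above the median on 0 arrays. The 11 dermal papilla marker genes on the array summed to 24497 to 30543 signal units in dermal papilla, against 442 to 930 in hair germ and 221 to 267 in bulge. The 9 dermal fibroblast markers summed to 18055 to 23277 in dermal papilla, 257 to 1013 in hair germ and 255 to 1353 in bulge, and 8 of the 9 lay above the median on all 3 dermal papilla arrays, so papilla and other dermal mesenchyme cannot be told apart by these lists. In dermal papilla the 7 endothelial markers summed to 75.9 to 146, with 6 of the 7, Pecam1 among them, below the median on all 3 arrays. The exception, Vwf, was above it on day 56 (6.31 on the log2 scale) and, in the fit without the filter, higher in dermal papilla than the epithelial mean by 1.72 (limma, adjusted p = 7.32e-05). The leukocyte gene Ptprc, whose product CD45 was a depletion marker, was below the median on all 3 dermal papilla arrays, but above it on the day 69 hair germ array and the 3 bulge arrays. The GAPDH 3′/5′ signal ratio, a measure of RNA integrity and amplification, was 6.62, 4.13 and 3.77 in dermal papilla on days 43, 56 and 69, 8.34, 2.97 and 7.90 in hair germ, and 4.46, 5.09 and 3.96 in bulge. In sorted bulk samples, fewer expressing cells and less RNA per cell cannot be told apart.

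The first comparison asked which of these genes the dermal papilla expressed above the epithelium. Fgf7 showed the widest separation. Its signal was 234, 584 and 934 in dermal papilla on days 43, 56 and 69, against 15.8, 31.5 and 39.5 in hair germ and 19.4, 3.64 and 11.6 in bulge. The dermal papilla arrays did not overlap the epithelial arrays, and all 6 epithelial values lay below their own array's median signal, which ran from 39.9 to 56.3. On the log2(signal + 16) scale, where every difference below is given, Fgf7 averaged 9.03 ± 0.98 (SD, n = 3) in dermal papilla, 5.45 ± 0.42 in hair germ and 4.74 ± 0.43 in bulge. It was higher by 3.93 ± 0.34 (SE) than the mean of hair germ and bulge, a 15.3-fold difference (limma, adjusted p = 4.39e-06), and the sign held on 3 of 3 days. Since hair germ and bulge were below the array median, the fold has a firmer lower bound: Fgf7 was at least 7.80-fold higher in dermal papilla than in hair germ and at least 9.03-fold higher than in bulge when those arrays are set at their medians.

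Fgf10, the other FGFR2 ligand of mesenchyme, was dim. Its signal was 39.5, 44.5 and 107 in dermal papilla on days 43, 56 and 69, against 10.3, 7.92 and 12.6 in hair germ and 11.7, 2.05 and 12.4 in bulge. The groups did not overlap, but on day 43 the dermal papilla value was below the array median, on day 56 it was just above, and only the day 69 array stood clear of it. With 2 of 9 arrays above the median, Fgf10 missed the filter of 3 and was not among the 7796 genes of the main test. In a fit over all 12393 named genes without that filter, it was higher in dermal papilla than the mean of hair germ and bulge by 1.56 ± 0.25 (SE), 2.96-fold (limma, adjusted p = 0.000797). Set against the medians of the dim arrays, the bound on the means was small, at least 1.11-fold over hair germ and at least 1.29-fold over bulge. On days 43 and 56 the dermal papilla signal was below the median of the same day's hair germ array (43.5 and 53.8).

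Fgf13, the intracellular homologous factor, was intermediate. Its brightest probe set read 116, 223 and 264 in dermal papilla on days 43, 56 and 69, against 34.5, 56.1 and 30.7 in hair germ and 15.6, 5.50 and 8.22 in bulge. All 3 dermal papilla arrays lay above all 6 epithelial arrays, and of the epithelial arrays only day 56 hair germ lay above its median. Fgf13 averaged 7.69 ± 0.57 (SD, n = 3) in dermal papilla, 5.79 ± 0.33 in hair germ and 4.67 ± 0.28 in bulge, higher in dermal papilla than the epithelial mean by 2.46 ± 0.29 (SE), 5.52-fold (limma, adjusted p = 4.84e-05). Against bulge the bound was at least 3.57-fold. A second Fgf13 probe set, annotated to the same accession, lay below the median on all 9 arrays, at 0.882 to 11.3 in dermal papilla, 1.35 to 15.3 in hair germ and 1.52 to 11.4 in bulge, and gave a difference of -0.04 (limma over all probe sets, adjusted p = 0.942). The result for Fgf13 therefore rests on 1 of its 2 probe sets.

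Fgf1, the broadly binding ligand, ran the other way. Its signal was 7.91, 16.9 and 12.3 in dermal papilla, all below the array median, against 20.7, 85.8 and 71.6 in hair germ and 128, 148 and 234 in bulge on days 43, 56 and 69. No dermal papilla array overlapped an epithelial one, and each bulge array was above every hair germ array. Fgf1 averaged 4.81 ± 0.23 (SD, n = 3) in dermal papilla, 6.11 ± 0.79 in hair germ and 7.50 ± 0.42 in bulge. It was lower in dermal papilla than the epithelial mean, with a difference of -1.99 ± 0.27 (SE, limma, adjusted p = 0.000121). Set at the array median, the dermal papilla mean was lower than bulge by at least 2.99-fold, but than hair germ by only at least 1.14-fold. The second Fgf1 probe set, also dim in dermal papilla at 16.5 to 31.0, against 26.6 to 80.7 in hair germ and 69.3 to 118 in bulge, gave a smaller difference of -1.04 (limma over all probe sets, adjusted p = 0.0388).

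**Figure D1:**
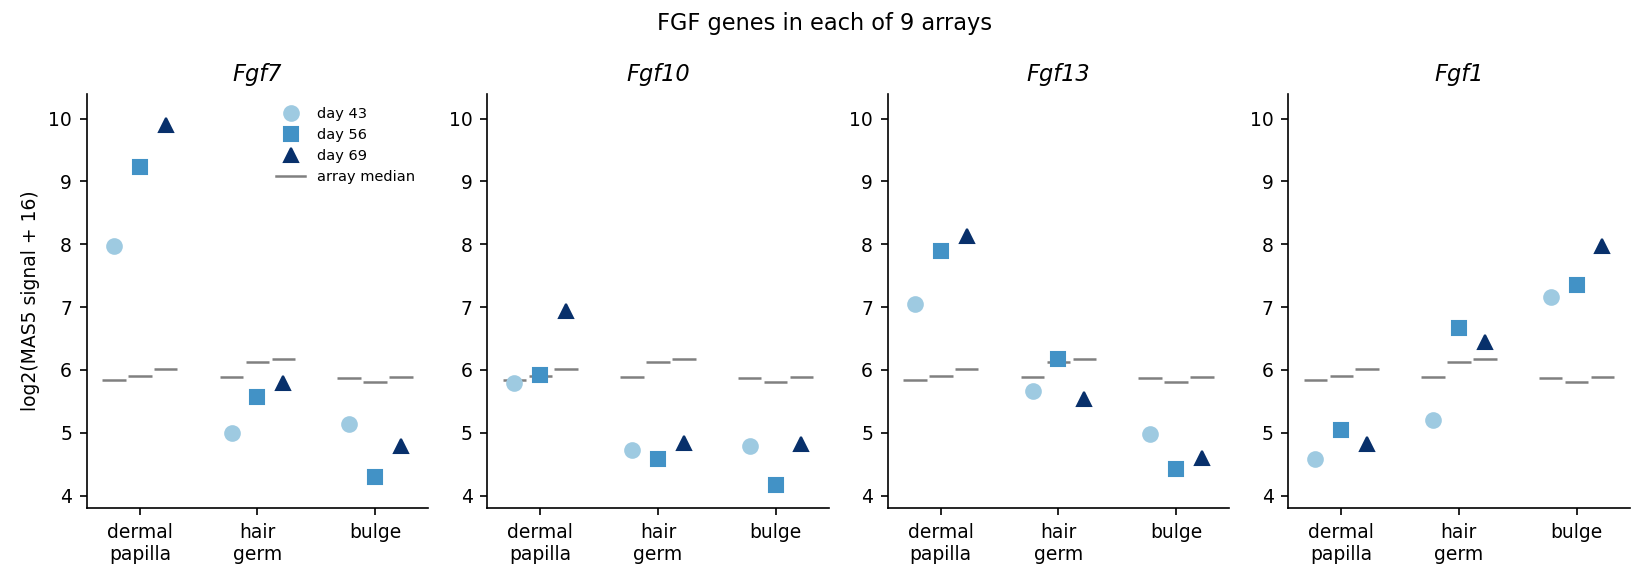
Each panel plots log2(MAS5 signal + 16) of 1 gene, taken from its brightest probe set, on the 9 arrays, with marker shape and shade giving the postnatal day and grey bars the median of that array. Fgf7, Fgf10 and Fgf13 are highest in dermal papilla, where Fgf7 averages 9.03, whereas Fgf1 is highest in bulge at 7.50 and below the array median in all 3 dermal papilla arrays.

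Of the 3 genes that entered the main test, 2 were called higher in dermal papilla than the epithelial mean and 1 lower. The same call was made for 16.6% of the 7796 genes tested in the higher direction and 23.7% in the lower one (limma, adjusted p below 0.05), and 40.3% in either. Fgf7 passed the filter through its 3 dermal papilla arrays alone, so its being tested at all came from the group where it was high. The same limit holds for Fgf1, which passed through 5 epithelial arrays and no dermal papilla array. It also holds for Fgf13, which passed through 3 dermal papilla arrays and 1 hair germ array, too few without dermal papilla. Without the filter all 4 genes were called, 3 higher and 1 lower, where 11.2% of the 12393 genes were called higher, 14.9% lower and 26.1% in either direction. A lack of overlap between the 3 dermal papilla and 6 epithelial arrays was seen for all 4. Over the 12393 genes it occurred in 23%, with dermal papilla higher in 10% and lower in 12.9%. With such shares over the whole array, these counts alone do not set the FGF genes apart from other genes that differ between mesenchyme and epithelium. Leaving out the arrays with GAPDH ratios above 6 (dermal papilla day 43, hair germ days 43 and 69) was an alternative added after the data were seen. It left only the day 56 array for hair germ, and its fit had no day term. The differences were 4.40 for Fgf7, 1.84 for Fgf10, 2.60 for Fgf13 and -2.15 for Fgf1. The pseudocount set the sizes: with 1 in place of 16 they were 4.87 for Fgf7, 2.63 for Fgf10, 3.26 for Fgf13 and -2.84 for Fgf1, and with 64 they were 2.79, 0.76, 1.56 and -1.12, so folds of genes this dim on one side depend on it.

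Pairwise contrasts gave the order of the levels. For Fgf7, dermal papilla was above hair germ by 3.58 (limma, adjusted p = 3.29e-05) and above bulge by 4.29 (adjusted p = 8.22e-06), while hair germ and bulge did not differ beyond their spread, at 0.71 with a 95% interval of -0.16 to 1.58 (adjusted p = 0.238). Over 19 alternatives the Fgf7 difference from hair germ ran from 2.64, with a pseudocount of 64, to 4.19. It was 4.19 with the dermal papilla array of day 43 and the hair germ array of day 69 left out. The call between hair germ and bulge was sensitive to 1 array, since without the day 43 bulge array the difference was 1.29 with adjusted p = 0.038. For Fgf10 the order was the same in the unfiltered fit, with dermal papilla above hair germ by 1.51 (adjusted p = 0.00286) and above bulge by 1.62 (adjusted p = 0.00189). That fit called 10% of genes higher in dermal papilla than in hair germ and 10.8% higher than in bulge, and 7.38% higher in hair germ than in bulge. Hair germ and bulge differed by 0.12 for Fgf10, with a 95% interval of -0.52 to 0.75 (adjusted p = 0.85).

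For Fgf13 and Fgf1 the means ran in opposite orders across the populations, but for Fgf13 the lower step is not firm, since 2 of 3 hair germ and all 3 bulge arrays were below their medians. Nor is the Fgf1 step from dermal papilla to hair germ, since all 3 dermal papilla arrays and the day 43 hair germ array were below their medians. Fgf13 was higher in dermal papilla than in hair germ by 1.90 (limma, adjusted p = 0.00102) and than in bulge by 3.02 (adjusted p = 3.56e-05), and higher in hair germ than in bulge by 1.12 ± 0.34 (SE; adjusted p = 0.0397). Fgf1 was lower in dermal papilla than in hair germ, with a difference of -1.29 (adjusted p = 0.00646), and than in bulge, with -2.68 (adjusted p = 4.35e-05), and lower in hair germ than in bulge, with -1.39 ± 0.31 (SE; adjusted p = 0.0101). Over the 7796 tested genes, dermal papilla was called against hair germ for 39.3% (15.5% higher, 23.8% lower) and against bulge for 35.1% (16.1% higher, 19% lower). Median centring turned the split against hair germ from 1207 higher and 1855 lower genes to 1451 and 1482. Hair germ was called against bulge for 19.8% (12.2% higher, 7.56% lower), a split of 952 and 589 genes that became 613 and 941 under median centring. Each bulge array above each hair germ array, as for Fgf1, occurred in 15% of tested genes. The 2 hair germ against bulge calls were fragile, and that of Fgf13 was lost in 10 of 20 alternatives. The Fgf13 call ended without filter (adjusted p = 0.071), under quantile normalization (0.0912), under median centring (0.0686) and with a pseudocount of 64 (0.127). It also ended without the day 56 bulge array (0.184), the day 69 bulge array (0.147), the day 43 or day 56 hair germ array (0.0979 and 0.148) or the day 56 dermal papilla array (0.0648), and on its second probe set (0.828). The Fgf1 call ended without the day 43 or day 69 bulge array (0.0712 and 0.068) and on its second probe set (0.195). It also ended without the 3 arrays of high GAPDH ratio, but that left only the day 56 hair germ array. The second Fgf1 probe set also gave no call between dermal papilla and hair germ, at -0.62 with adjusted p = 0.272.

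**Figure D2:**
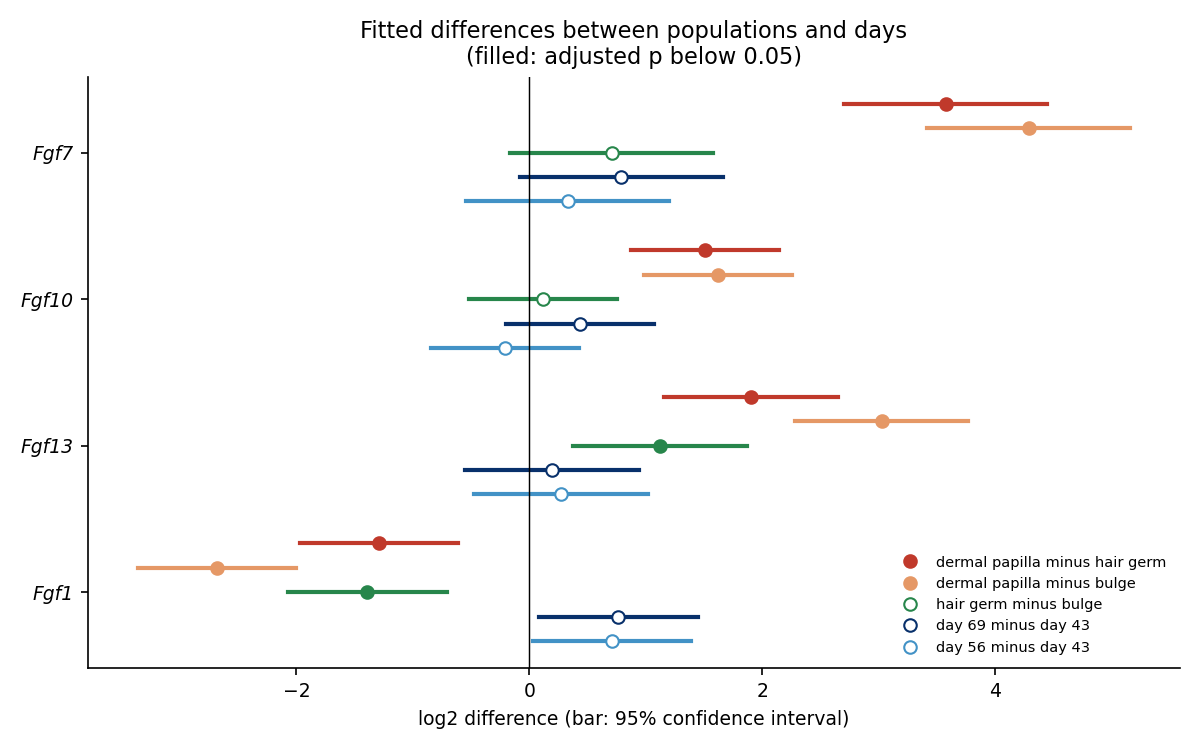
Points are fitted log2 differences between populations or days for each gene, with bars for the 95% confidence interval and filled points where the adjusted p was below 0.05. The dermal papilla contrasts lie above 0 for Fgf7, Fgf10 and Fgf13 and below 0 for Fgf1, and all day contrasts are open.

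The second question was how the levels of these genes differed between days of telogen. Within dermal papilla, Fgf7, Fgf10 and Fgf13 each had their lowest signal on day 43 and their highest on day 69. Fgf7 was higher on day 56 than on day 43 by 1.26 (2.39-fold) and on day 69 by 1.92 (3.79-fold). Fgf10 was higher on day 69 than on day 43 by 1.15 (2.22-fold) and differed by 0.12 on day 56. With its day 43 signal, which was not above the median, set at that median, the day 69 difference was at least 1.10 (2.15-fold). Fgf13 was higher on day 69 by 1.08 (2.12-fold) and on day 56 by 0.85 (1.80-fold). With 1 array a day, these differences have no replicate check and no test.

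A difference of at least 2-fold between days 69 and 43 in dermal papilla, with the higher array above its median, was found for 5.82% of the 7796 tested genes in the higher direction, and for 4.34% of all 12393 named genes. Between days 56 and 43 the shares were 4.59% and 3.27%. Signals ordered upward over the 3 days occurred in 21.5% of tested and 20.6% of named genes, so the order by itself is common. Actin 3′/5′ ratios in dermal papilla were 13.5, 4.32 and 3.12 on days 43, 56 and 69. The day 43 dermal papilla array also had the highest GAPDH ratio of the 3. Between days 69 and 56, where that array plays no part, the difference was 1.03 (2.04-fold) for Fgf10, 0.66 (1.58-fold) for Fgf7 and 0.23 (1.17-fold) for Fgf13, and 2.59% of tested and 2.01% of named genes reached 2-fold in the higher direction. Fgf1 stayed below the array median on all 3 dermal papilla days.

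Other genes moved across the same 3 dermal papilla arrays. Lef1, whose reporter defined the sort, had signals of 52.3, 96.5 and 448 on days 43, 56 and 69. Of the 11 dermal papilla markers, 6 were at least 2-fold higher on day 69 than on day 43 and 0 lower, with a median difference of 1.11 and a range of -0.35 to 1.79. Among the 6, Prom1 was at 7.05, 8.54 and 8.85 on the log2 scale on days 43, 56 and 69, Corin at 8.53, 8.63 and 10.20, and Sox2 at 7.91, 7.51 and 9.31. Bright markers were split. Crabp1, at 13.25, 12.98 and 12.91, did not follow the 6, whereas Vcan, at 10.82, 10.18 and 11.93, was among them. The list summed to 28469, 24497 and 30543 signal units. Set beside the list's range of -0.35 to 1.79, Fgf7 differed by 1.92, Fgf10 by 1.15 and Fgf13 by 1.08 between the same days. The fibroblast markers summed to 23277, 18685 and 18055, with 2 of 9 at least 2-fold higher on day 69. Of the sums for other cell types, those of keratinocyte, smooth muscle and endothelial markers set the day 43 array apart. The leukocyte and adipocyte sums rose from each day to the next. The 8 keratinocyte markers summed to 875, 260 and 294, with 4 at least 2-fold lower on day 69 and 1 higher. Among the lower ones, Trp63 was at 8.37, 6.20 and 4.98. The higher one was Krt14, at 4.41 on day 43 and 5.78 on day 69, below the array median on all 3 days. Itgb4 and Epcam were also higher on day 69 than on day 43, by less than 2-fold. The smooth muscle and pericyte markers summed to 182, 380 and 361, and the endothelial markers to 75.9, 146 and 141. The 6 leukocyte markers summed to 107, 273 and 581, with 5 of the 6 below the array median on all 3 days, among them Ptprc, and with Laptm5 the exception at 5.14, 7.99 and 9.07 on the log2 scale. The 4 adipocyte markers summed to 231, 443 and 967, with Adipoq among the 3 below the median on all 3 days and Fabp4 the exception, at 7.83, 8.80 and 9.93. The part of these genes, of the sort or of RNA quality in the day differences of the FGF genes was not tested.

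In hair germ, Fgf1 was higher on day 56 than on day 43 by 1.47 (2.77-fold) and on day 69 by 1.25 (2.39-fold), where 5.39% and 7.67% of tested genes reached 2-fold in the higher direction. The day 43 signal was below its array median, and set at that median the differences were at least 0.78 (1.71-fold) and 0.56 (1.47-fold), under 2-fold. In bulge it was higher by 0.19 on day 56 and by 0.80 on day 69. Actin 3′/5′ ratios in hair germ were 17.7, 3.79 and 16.3 on days 43, 56 and 69, and their part in these differences was not tested. Fgf7 in hair germ stayed below the array median on all 3 days, and so did Fgf7, Fgf10 and Fgf13 in bulge.

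Fitted over all 3 populations, no gene of the array passed for either day (limma, 0 of 7796, or 0%, with 565 at an unadjusted p below 0.05 for day 69 minus day 43 and 398 for day 56 minus day 43). For day 69 the differences were 0.79 (95% interval -0.08 to 1.66, adjusted p = 0.732) for Fgf7, 0.44 (adjusted p = 0.777, unfiltered fit) for Fgf10, 0.20 (adjusted p = 0.914) for Fgf13 and 0.77 (adjusted p = 0.68) for Fgf1. Fgf1 and Fgf10 each had the same sign in 3 of 3 populations, though Fgf1 in dermal papilla and Fgf10 in hair germ and bulge stayed below the array median. That fit averages populations and cannot test a change confined to dermal papilla.

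**Figure D3:**
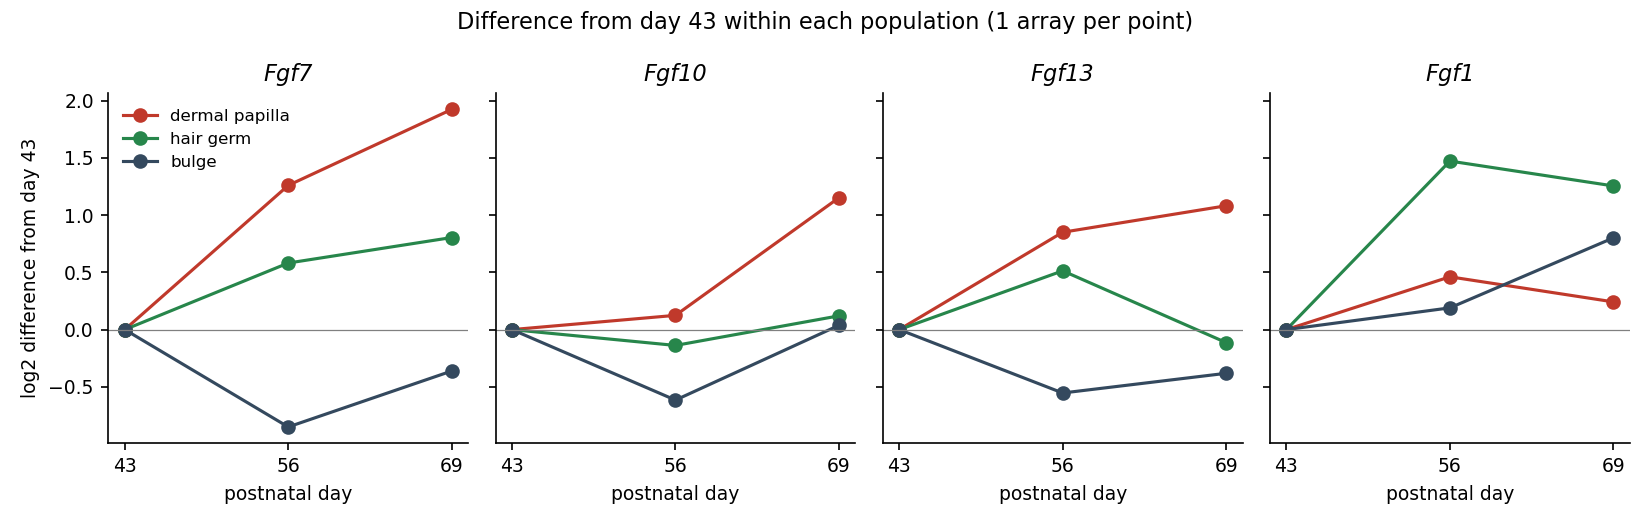
Lines give the log2(signal + 16) difference from day 43 within dermal papilla, hair germ and bulge on postnatal days 43, 56 and 69, with 1 array per point and no error estimate. In dermal papilla Fgf7 reaches 1.92, Fgf10 1.15 and Fgf13 1.08 on day 69, whereas in hair germ Fgf1 reaches 1.47 on day 56.

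The remaining FGF family was mostly dim. Of 15 other secreted ligand genes on the array, 1 passed the filter. This was Fgf18, at 9.14, 5.11 and 5.55 on the log2 scale in dermal papilla on days 43, 56 and 69, 4.34, 4.19 and 4.36 in hair germ and 11.11, 11.31 and 10.19 in bulge. It did not pass against the epithelial mean (-0.98, limma, adjusted p = 0.209), was lower in dermal papilla than in bulge (-4.27, adjusted p = 0.00045) and, unlike Fgf7, Fgf10 and Fgf13, was highest on day 43 within dermal papilla. Of the 3 other homologous factors, 1 was tested: Fgf11 averaged 6.63 ± 0.11 in dermal papilla, 5.83 ± 0.31 in hair germ and 5.50 ± 0.14 in bulge (SD, n = 3 each), and was higher in dermal papilla than the epithelial mean by 0.96 ± 0.23 (SE; limma, adjusted p = 0.00652). Fgf12 missed the filter with 2 arrays above the median, as Fgf10 did, and in the fit without it was higher by 1.50 ± 0.21 (SE; limma, adjusted p = 0.000384), at 5.55, 5.96 and 6.39 in dermal papilla on days 43, 56 and 69. Fgf2, a ligand above the median on 1 array, was higher by 1.10 ± 0.22 in the same fit (limma, adjusted p = 0.00314). Of 13 sodium channel and related partner genes of FGF13, 9 were on the array and 0 passed the filter.

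The receptor genes Fgfr1, Fgfr2 and Fgfr3 lay above the array median on all 9 arrays. Of 5 receptor genes tested, 3 were higher in dermal papilla than the epithelial mean and 1 lower, against 16.6% and 23.7% of all tested genes. Of the 3, Fgfr4 and Fgfrl1 passed the filter through their 3 dermal papilla arrays alone, so that count is no support. Fgfr1 was higher by 2.26 ± 0.32 (SE; limma, adjusted p = 0.00017), Fgfr4 by 1.60 and the decoy-like receptor gene Fgfrl1 by 1.39. Fgfr3 was lower, at -1.78 (adjusted p = 2.08e-05). Fgfr2, whose epithelial splice form binds FGF7 and FGF10, averaged 10.59 ± 0.31 (SD, n = 3) in dermal papilla, 11.02 ± 0.50 in hair germ and 10.24 ± 0.07 in bulge. It did not pass against the epithelial mean (-0.04, adjusted p = 0.878) and was higher in hair germ than in bulge by 0.78 (adjusted p = 0.0294). The annotation used here does not separate its splice forms.

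Among co-receptors, binding proteins and heparan sulfate proteoglycans, 10 of 12 were tested, 4 higher and 3 lower in dermal papilla. That is 7 of 10 in either direction, where 40.3% of all tested genes were called. Gpc3 passed the filter through its 3 dermal papilla arrays alone. The glypican genes Gpc3 (2.43), Gpc4 (1.65) and Gpc1 (0.97) and the syndecan gene Sdc2 (2.34) were higher. Fgfbp1, which encodes a secreted carrier that frees FGFs from the matrix, was lower at -2.96 ± 0.26 (SE; limma, adjusted p = 5.49e-06), as were Sdc4 (-1.53) and Sdc1 (-1.11). Fgfbp1 was also higher in hair germ than in bulge by 2.10 (adjusted p = 0.000885), where the hair germ arrays averaged 8.66 ± 0.53 and the bulge arrays 6.55 ± 0.54 (SD, n = 3 each).

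Response and feedback genes, which FGF and other MAP kinase signals induce, were mixed. Of 10 listed, 5 were tested, with 2 higher, 1 lower and a median of 0.63 in dermal papilla against the epithelial mean, where 40.3% of all tested genes were called and their median was -0.10. The MAP kinase inhibitor genes Spred1 (1.83, limma, adjusted p = 0.000317) and Spry1 (0.70, adjusted p = 0.0456) were higher, and the ERK phosphatase gene Dusp6 was lower (-1.25, adjusted p = 0.0054). In hair germ against bulge, 3 of the 5 were higher and 0 lower, where 12.2% of all tested genes were higher and 19.8% called in either direction. The median was 1.26 against 0.10 over all tested genes, with Dusp6 higher by 1.86 (adjusted p = 0.00328), Spred2 by 1.41 (adjusted p = 0.0223) and Spry1 by 1.26 (adjusted p = 0.012). Of the receptor adaptors, 3 of 6 were tested and 1, Gab1, was lower in dermal papilla (-1.50, adjusted p = 0.000135).

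**Figure D4:**
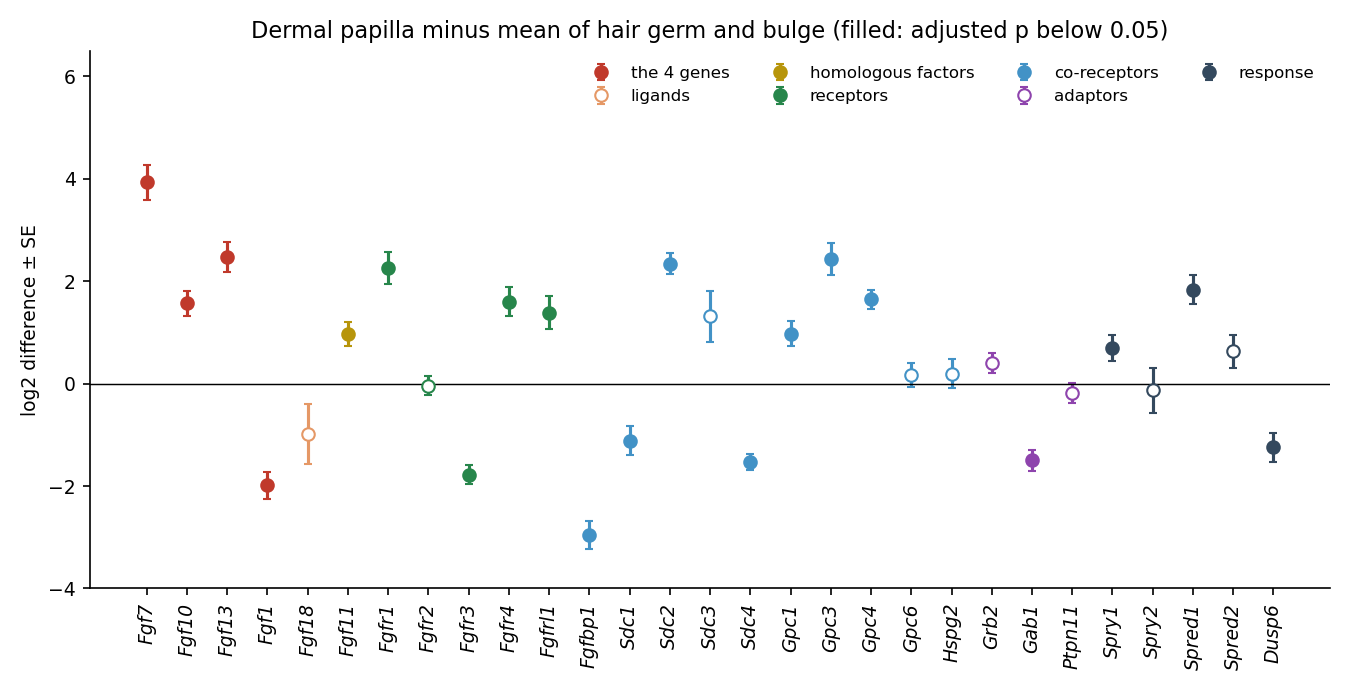
Fitted log2 differences ± SE, dermal papilla over the epithelial mean, are plotted for the 4 genes and for the tested genes of the FGF pathway lists, filled where the adjusted p was below 0.05. Fgf7 has the highest value plotted at 3.93 and Fgfbp1 the lowest at -2.96, and the Fgf10 value comes from the fit without a filter.

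Likeness of pattern was measured as Pearson's r over the 9 arrays, which share population differences, so high values are common and no p is given. The genes most like Fgf7 among 7795 others were Lepr (leptin receptor) at 0.995, Mdk (midkine, a heparin-binding growth factor) at 0.994 and Ap3s1 (a subunit of a vesicle adaptor) at 0.991. Over the dermal papilla days Lepr was at 8.28, 9.80 and 10.47 on days 43, 56 and 69. Those most like Fgf13 were Gucy1b1 (a soluble guanylate cyclase subunit) at 0.989, Scarb1 (a lipoprotein receptor) at 0.988 and Hfe (a regulator of iron uptake) at 0.985. Those most like Fgf1 were Trim2 (a ubiquitin ligase) at 0.985, Hscb (an iron-sulfur cluster co-chaperone) at 0.984 and Parp8 at 0.983. Among the 4 genes, r was 0.957 for Fgf7 and Fgf10, 0.965 for Fgf7 and Fgf13, 0.893 for Fgf10 and Fgf13, and between -0.858 and -0.732 for Fgf1 with each of the others.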

How the data were processed

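The deposited values are MAS5 signals, a linear intensity per probe set, which the authors made with GCOS per the submitters' processing notes. Versions and the scaling target are not given in the sources used here. Per the labels, 20 ng of RNA per sample went through both rounds of amplification. Detection calls were not used here, so the array median, 39.9 to 56.3, stood in for background. Arrays give no count depth so precision depends on their number.

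Here, signals were taken as log2(signal + 16) without rescaling. After removal of 64 control probe sets, those above their own array's median on at least 3 of 9 arrays were kept. Each gene took its brightest kept probe set, which gave 7796 genes tested of 12393 named. The annotation gave 1 gene for 20380 probe sets (20351 of them found in the current gene table), more than 1 for 691 and no gene for 1555.

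A linear model with population and day as additive terms (4 residual degrees of freedom) was fitted with limma 3.58.1 in R 4.3.3, with eBayes, a mean-variance trend and two-sided Benjamini-Hochberg adjusted p below 0.05. It was tested on simulated data. Nothing says that a day's arrays came from separate animals, so p values measure the spread between these arrays. Fgf10 missed the filter and was taken from the same fit without it. Promoter sequences are from RefSeq, GRCm38.p6, where 3 of the 4 genes were used.

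Genes named were the 4 FGF genes, the 3 tested genes most correlated with each that passed the filter, and up to 4 called genes per direction of each FGF pathway list, or 2 where none passed. Spred2, Fgf12, Fgf2 and the marker genes given by day were named after their values were seen. The members and lists were chosen with earlier results of these data known. Alternatives covered the pseudocount, filter, scaling, probe set choice, day term, variance trend and each array left out.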

Additional observations from a re-analysis of the deposited data

Results flagged for a closer look

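For 2 of the 4 genes, both later arrays of one population moved one way from day 43 and both later arrays of another moved the opposite way. How often other genes of the array show this pattern was not counted, so the count of 2 does not set these genes apart. For Fgf7 the difference between days 69 and 43 was 1.92 on the log2 scale in dermal papilla and 0.80 in hair germ, against -0.36 in bulge. For Fgf13 it was 1.08 in dermal papilla, against -0.38 in bulge. The difference between populations was not tested, because each population had 1 array a day. Both genes lay below the array median on all 3 bulge arrays, so the bulge values are changes within dim signal.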

How the results depend on the processing

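The dermal papilla differences from the epithelial mean kept their direction and stayed called for Fgf7 (2.79 to 4.87 over 19 alternatives), Fgf10 (0.76 to 2.63 over 18) and Fgf1 (-2.84 to -1.04 over 20). Fgf13 did so in 19 of 20, at up to 3.26, the exception being its second probe set, which gave -0.037 against the epithelial mean and -0.10 against hair germ. That probe set was below the median on every array. In dermal papilla the day 69 minus day 43 difference of Fgf10 was 0.73 with a pseudocount of 64, against 1.15 (these checks were chosen after seeing the data), and stayed above 0 for Fgf7, Fgf10 and Fgf13 under the other pseudocount and both scalings. The number of genes called for hair germ against bulge was 1541, ran from 783 to 1609 with arrays left out, and was 1000 without the 3 arrays of high GAPDH ratio (chosen after seeing the data, no day term). Scaling moved its split from 952 higher and 589 lower to 693 and 794 under quantile normalization and 613 and 941 under median centring, and the median difference over tested genes, 0.10, became -0.05 and -0.11. For dermal papilla against hair germ the split of 1207 and 1855 became 1526 and 1505, and 1451 and 1482. The cause was not tested. Dropping the day term, which acts as the replicate block, gave 3082 genes for dermal papilla against the epithelial mean instead of 3145, and changed no call of the 4 genes. Same-day deviations correlated at -0.10 to 0.18 between populations and different-day ones at -0.26 to 0.24. These ranges overlap, and they cannot show whether a day's arrays are paired.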
